A study of Mus musculus with 2 samples.

Results

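Collagen chain genes were taken as every gene whose symbol in the platform annotation is Col, a number, the letter a and a number, read from probe sets that carry that symbol alone. The rule found 36 genes among the 12393 genes on the array, read by 58 probe sets, and 17 of the 36 were measured in both clones. The RNA came from 2 cultures of LM8, a mouse osteosarcoma cell line. The hPHD4 clone was stably transfected with a full-length cDNA of human PHD4 in the pcDNA3.1 vector, the control clone with the empty vector, and both were grown under selection with 0.5 mg/ml G418; they are called hPHD4 cells and control cells below. Each group was 1 clone read on 1 array, so differences between any 2 clones, cultures or hybridisations cannot be told apart from those that go with hPHD4. Without replicates there was no test and no p-value, and no difference below has a replicate check. The array held 0 probe sets for P4htm alone, the mouse PHD4 gene, and the clone labels were not checked against it.

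Collagens are extracellular matrix proteins built from 3 polypeptide chains wound into a triple helix, and the chains of 1 molecule can come from the same gene or from different genes. Fibrillar collagens, above all type I, make the fibres that give bone its tensile strength and are secreted in bulk by osteoblasts. Type IV forms the network of basement membranes, type VI forms beaded microfilaments around cells, and the FACIT collagens (fibril-associated collagens with interrupted triple helices) decorate the surface of fibrils. Prolines of the helix are hydroxylated in the endoplasmic reticulum by collagen prolyl hydroxylases. PHD4 is a prolyl hydroxylase of the endoplasmic reticulum membrane that is related to those enzymes and to the enzymes that hydroxylate hypoxia-inducible factor (HIF).

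The deposited value of a probe set is a log2 MAS5 signal, a relative brightness with no absolute unit. Probe sets above the 40th percentile of their array on both arrays were called measured. This percentile, the floor, was a linear signal of 81.1 in hPHD4 cells and 67.8 in control cells. A gene was given the log2 ratio, hPHD4 over control cells, averaged over its measured probe sets. Replicate error being absent, the only yardstick was how far probe sets for 1 gene disagree, as an SD of log2 ratios pooled over 2800 genes. That SD was 0.40 for the dimmest, 0.37 for the middle and 0.28 for the brightest of 3 equal groups of genes. Errors printed with ± are this SD divided by the square root of the number of probe sets. They cover disagreement between probe sets and leave out differences between clones, cultures and arrays. Brightness depends on the probes, so a brighter gene is not read as a more abundant transcript, and sums over marker genes serve only to set the clones side by side.

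Over the collagens as a whole, ratios lay on both sides of 0, and they did so within every class but the basement membrane pair. Of 17 measured genes 5 were higher in hPHD4 cells by at least 1.5-fold, against 8.94% of the 7452 genes measured on the array, and 2 were lower by that much, against 5.22%. Ratios were above 0 for 9 of the 17, against 53.6% of all measured genes. Higher were Col9a1, Col8a1, Col6a3, Col4a1 and Col7a1, and lower were Col6a1 and Col6a2. The Col6a2 value is a mean of probe sets on both sides of 0, at log2 ratios of −1.41 and 0.15. At a 2-fold threshold 1 gene was higher, Col9a1, and 1 lower, Col6a1, where the shares of all measured genes were 1.89% and 0.98%. The remaining 10 genes lay within 1.5-fold. The median log2 ratio was 0.29 over the 17 genes and 0.03 over all measured genes. That collagen median is the ratio of Col26a1, the smallest above 0, whose signals lay next to the floors. The next ratio below it was −0.11, for Col1a1. The median size of the ratio, without its sign, was 0.56 over the collagens and 0.24 over all measured genes. When log ratios were centred on the median of all measured genes, 4 collagens were at least 1.5-fold higher and 3 lower, where the shares of all genes were 8.05% and 6.08%. After quantile normalization the collagen counts were 4 and 2, and the shares of all genes 6.66% and 6.43%.

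**Figure D1:**
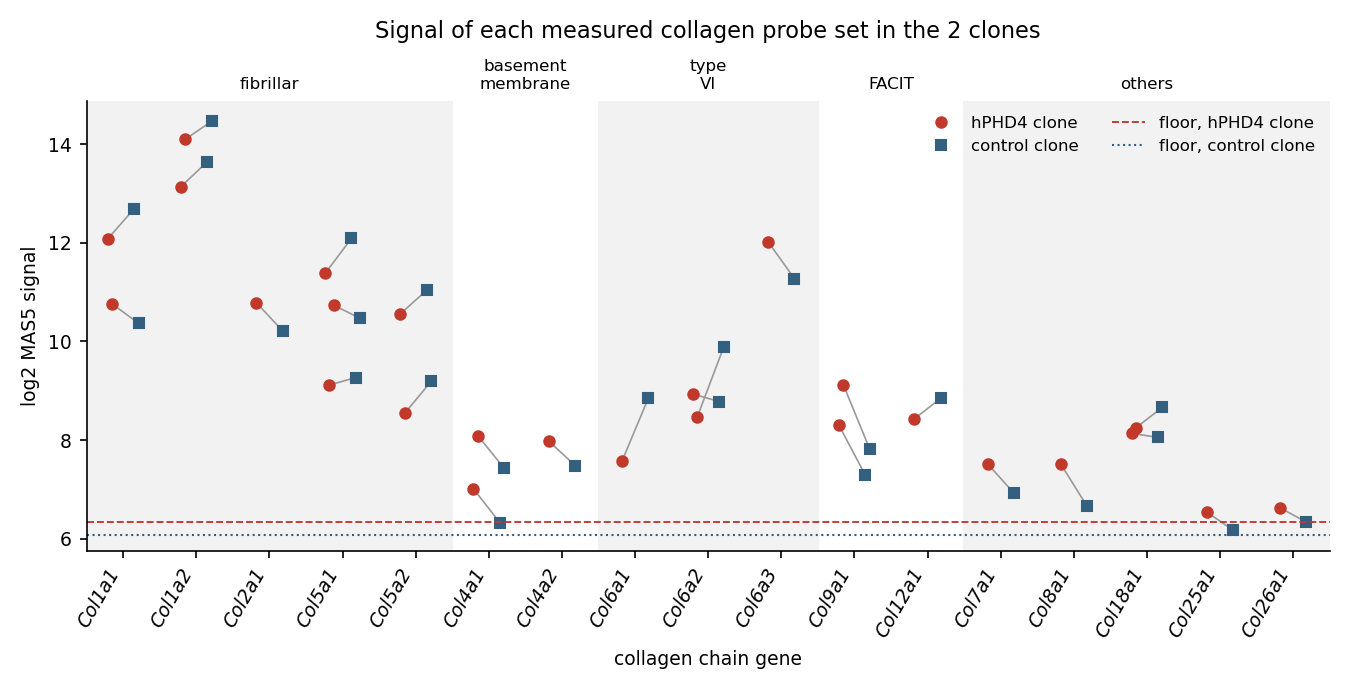
Log2 MAS5 signal (vertical axis) of each collagen probe set measured in both clones, by gene and class; circles are the hPHD4 clone, squares the control clone, lines join the same probe set, and the horizontal lines are the floors. Col1a1, Col5a1, Col6a2 and Col18a1 have probe sets that slope in both directions, while Col25a1 and Col26a1 lie next to the floors.

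Among fibrillar collagens, 5 of 9 genes were measured. Of these, 0 were past 1.5-fold in either direction, against 14.2% of all measured genes. Ratios lay below 0 for 4 of the 5, against 46.4% of all measured genes. All 5 belonged to the brightest of the 3 groups of genes. In that group 3.38% of genes were at least 1.5-fold higher and 4.43% lower, and 46.1% had ratios above 0. The fibrillar median was −0.20, and −0.48 with the brightest probe set of each gene. Col1a2 encodes the second chain of type I collagen, the main protein of bone matrix. Its probe sets had signals of 9037 and 17563 in hPHD4 cells, against 12799 and 22636 in control cells, so both were dimmer in hPHD4 cells. The log2 ratio of Col1a2 was −0.43 ± 0.20, or 1.35-fold lower. Col1a1 encodes the other chain of type I collagen. Its probe sets disagreed, with signals of 4339 and 1734 in hPHD4 cells and 6625 and 1321 in control cells. The log2 ratios were −0.61 and 0.39, and their SD of 0.71 was larger than that of 95.9% of the genes with at least 2 measured probe sets. The gene mean of −0.11 ± 0.20 therefore gives no direction for Col1a1, and it became −0.61 when the brightest probe set alone was read.

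Col5a2 and Col5a1 encode chains of type V collagen, which joins type I in heterotypic fibrils and controls where they form. Col5a2 had signals of 1508 and 373 in hPHD4 cells and 2106 and 583 in control cells. Both probe sets were dimmer in hPHD4 cells, at −0.48 and −0.64 on the log2 scale, and the gene mean of −0.56 ± 0.20 (1.48-fold lower) stopped just inside the 1.5-fold threshold. The 3 probe sets of Col5a1 stood at −0.71, −0.15 and 0.26 on the log2 scale, with a mean of −0.20 ± 0.16. As for Col1a1, the probe sets lay on both sides of 0, with an SD larger than that of 86.1% of genes. Col2a1 encodes the chain of type II collagen, the fibrillar collagen of cartilage. Its only probe set had a signal of 1766 in hPHD4 cells and 1188 in control cells. Col2a1 was the only measured fibrillar gene above 0, at 0.57 ± 0.28 (1.49-fold higher), again just inside the threshold.

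Within type I and type V the differences between chains were close in size to their errors, which come from the pooled SD of 0.28. The probe sets of Col1a1 and Col5a1 themselves disagreed by more, with SDs of 0.71 and 0.49. The log2 ratio of Col1a1 minus that of Col1a2 was 0.33 ± 0.28, and that of Col5a1 minus Col5a2 was 0.36 ± 0.25. With the brightest probe set of each gene these differences were −0.24 and −0.23.

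**Figure D2:**
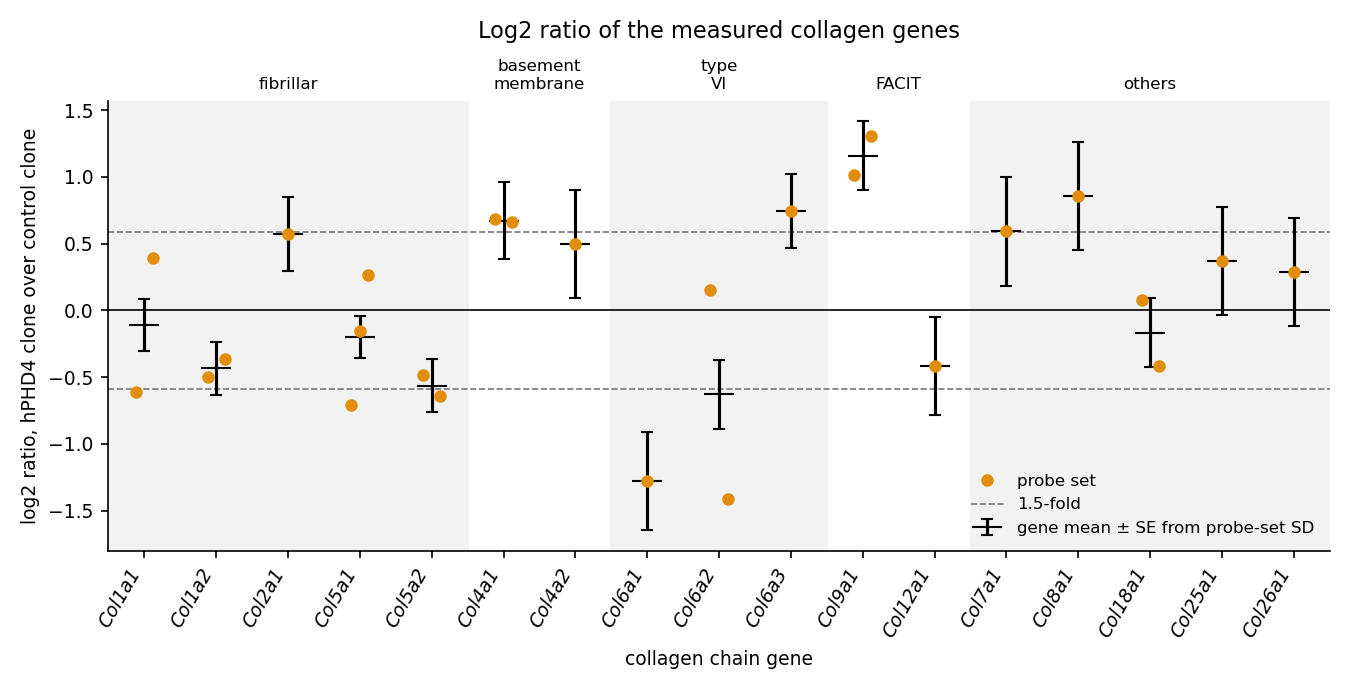
Log2 ratio, hPHD4 clone over control clone (vertical axis), for the 17 measured collagen genes by class; points are probe sets, horizontal ticks with bars are the gene mean ± the standard error derived from the SD between probe sets, and dashed lines mark 1.5-fold. Col9a1 stands highest at 1.16 and Col6a1 lowest at −1.28, and the type VI genes span 0.

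Both measured basement membrane genes were brighter in hPHD4 cells, where 53.6% of all measured genes had ratios above 0. Both belonged to the dimmest of the 3 groups of genes, where that share was 62.2%. Col4a1 and Col4a2 encode the alpha 1 and alpha 2 chains, which assemble with each other into the type IV network of nearly all basement membranes. Col4a1 had signals of 129 and 272 in hPHD4 cells, against 80.2 and 172 in control cells. Its probe sets had log2 ratios of 0.68 and 0.66, and the mean of 0.67 ± 0.29 is 1.59-fold higher; the dimmer probe set lay close to the floor in control cells. Col4a2 had a signal of 252 in hPHD4 cells and 179 in control cells on 1 probe set, a ratio of 0.50 ± 0.40. The partner chains differed by 0.18 ± 0.50 in log2 ratio. After quantile normalization or loess correction Col4a1 stood at 0.54 and 0.53, inside 1.5-fold.

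Col4a1 and Col4a2 lie head to head on mouse chromosome 8 and are transcribed in opposite directions from a shared promoter region. Their promoters are shown because both genes lay on the same side of 0. RefSeq places their start sites 21 bases apart (GRCm38.p6), so the windows of 300 bases, from 250 before to 50 after each start, overlap by 78 bases. Capitals mark CCAAT boxes (CCAAT), GC boxes (GGGCGG) and cores of hypoxia response elements (ACGTG or GCGTG), on either strand of the window.
Col4a1, chr8:11312777-11313076, minus strand: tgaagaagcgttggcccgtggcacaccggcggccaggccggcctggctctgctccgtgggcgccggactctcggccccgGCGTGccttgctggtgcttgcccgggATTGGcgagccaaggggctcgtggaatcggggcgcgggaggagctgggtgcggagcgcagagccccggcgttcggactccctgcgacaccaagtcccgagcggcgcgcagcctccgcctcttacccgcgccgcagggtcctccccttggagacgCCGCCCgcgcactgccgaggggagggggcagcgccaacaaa
Col4a2, chr8:11312555-11312854, plus strand: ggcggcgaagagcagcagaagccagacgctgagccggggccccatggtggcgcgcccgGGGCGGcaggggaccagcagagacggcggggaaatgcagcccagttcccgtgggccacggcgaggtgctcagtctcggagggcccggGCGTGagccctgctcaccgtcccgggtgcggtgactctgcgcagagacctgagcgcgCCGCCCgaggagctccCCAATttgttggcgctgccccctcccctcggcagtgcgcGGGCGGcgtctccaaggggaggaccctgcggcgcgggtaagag
The windows share 1 GC box, which begins at base 10 after the start of Col4a1 on the opposite strand of its window and at base 8 of Col4a2. Each window holds 1 CCAAT box and 1 hypoxia core of its own, and that of Col4a2 holds 2 further GC boxes. These are matches of letters and not measured binding sites.

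Of the 4 collagen types with at least 2 measured chains (I, IV, V and VI), the chains of type VI were the most unequal. The main form of type VI collagen is built from the products of Col6a1, Col6a2 and Col6a3, the last of which encodes a much longer chain. The other type VI genes, Col6a4, Col6a5 and Col6a6, had no probe set of their own symbol and were not read. Col6a1 had a signal of 190 in hPHD4 cells and 460 in control cells. Its log2 ratio of −1.28 ± 0.37 (2.43-fold lower) was lower than that of all but 0.55% of measured genes. Col6a3 had a signal of 4149 in hPHD4 cells and 2476 in control cells. Its ratio of 0.74 ± 0.28 (1.68-fold higher) was above that of 95.4% of measured genes. Both values rest on 1 probe set. The difference between Col6a1 and Col6a3 was −2.02 ± 0.46 on the log2 scale, an error that covers probe sets only and leaves out the spread between clones.

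Col6a2 was read by a pair of probe sets that disagreed more than those of 99.6% of genes, with an SD of 1.10. One had signals of 354 in hPHD4 cells and 941 in control cells, a log2 ratio of −1.41 and close to that of Col6a1. The other had 489 in hPHD4 cells and 440 in control cells, a ratio of 0.15. The suffix _x_at of the second probe set marks probes that can also match other transcripts. Col6a2 thus averaged −0.63 ± 0.26 (1.55-fold lower), and without probe sets of that kind it was −1.41. Col6a1 minus Col6a2 was −0.65 ± 0.45 on all probe sets and 0.13 without them.

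Col6a1 and Col6a2 are neighbours on chromosome 10 and are read in the same direction, while Col6a3 lies on chromosome 1. The median of all measured genes was 0.02 on chromosome 10 and 0.16 on chromosome 1. With these chromosome medians subtracted, Col6a1 minus Col6a3 was −1.89. The promoters of the 3 genes are shown in the same way for comparison with their opposite ratios; of the pair of windows annotated for Col6a2, the one nearer the gene body is given.
Col6a1, chr10:76725995-76726294, minus strand: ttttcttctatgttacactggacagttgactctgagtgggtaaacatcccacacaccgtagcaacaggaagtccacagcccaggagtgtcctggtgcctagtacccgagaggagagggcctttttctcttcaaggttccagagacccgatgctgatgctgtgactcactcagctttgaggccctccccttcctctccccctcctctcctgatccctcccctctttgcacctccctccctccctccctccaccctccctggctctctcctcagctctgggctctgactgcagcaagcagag
Col6a2, chr10:76623355-76623654, minus strand: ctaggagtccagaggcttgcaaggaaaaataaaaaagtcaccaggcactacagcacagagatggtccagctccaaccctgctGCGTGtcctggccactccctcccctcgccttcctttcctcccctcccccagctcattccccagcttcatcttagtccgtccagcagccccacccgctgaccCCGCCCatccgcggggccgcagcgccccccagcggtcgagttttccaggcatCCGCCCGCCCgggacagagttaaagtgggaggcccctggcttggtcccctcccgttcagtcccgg
Col6a3, chr1:90843922-90844221, minus strand: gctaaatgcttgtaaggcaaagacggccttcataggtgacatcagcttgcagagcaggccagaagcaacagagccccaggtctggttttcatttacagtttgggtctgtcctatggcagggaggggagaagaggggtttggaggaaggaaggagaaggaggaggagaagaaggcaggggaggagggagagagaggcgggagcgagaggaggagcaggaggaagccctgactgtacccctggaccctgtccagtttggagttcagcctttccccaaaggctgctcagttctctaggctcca
The Col6a2 window holds 3 GC boxes, of which the 2 nearest the start overlap, and 1 hypoxia core. None of the motifs searched is in the windows of Col6a1 and Col6a3, which says only that these letters are not in these bases.

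Of 9 FACIT genes 2 were measured, and they lay on opposite sides. Col9a1 encodes a chain of type IX collagen, which coats type II fibrils in cartilage. Its probe sets had signals of 314 and 554 in hPHD4 cells, against 156 and 225 in control cells. Both were at least 2-fold brighter, at log2 ratios of 1.01 and 1.30. The mean of 1.16 ± 0.26, or 2.23-fold higher, exceeded that of 98.9% of measured genes. Its partner chains were not measured: the brightest probe set of Col9a2 had signals of 4.58 in hPHD4 cells and 4.68 in control cells, and that of Col9a3 had 16.5 in hPHD4 cells and 8.65 in control cells. Col12a1, whose product binds type I fibrils, had a signal of 345 in hPHD4 cells and 461 in control cells, a ratio of −0.42 ± 0.37 on 1 probe set.

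RefSeq gives Col9a1 a pair of start sites, and both windows are shown because it is the collagen with the highest ratio.
Col9a1 upstream start, chr1:24177360-24177659, plus strand: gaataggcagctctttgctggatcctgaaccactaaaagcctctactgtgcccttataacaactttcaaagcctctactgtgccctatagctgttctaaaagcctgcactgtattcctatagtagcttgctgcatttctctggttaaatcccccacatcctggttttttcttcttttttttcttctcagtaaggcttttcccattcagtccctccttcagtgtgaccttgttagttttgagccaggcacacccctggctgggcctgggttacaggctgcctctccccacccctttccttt
Col9a1 downstream start, chr1:24194953-24195252, plus strand: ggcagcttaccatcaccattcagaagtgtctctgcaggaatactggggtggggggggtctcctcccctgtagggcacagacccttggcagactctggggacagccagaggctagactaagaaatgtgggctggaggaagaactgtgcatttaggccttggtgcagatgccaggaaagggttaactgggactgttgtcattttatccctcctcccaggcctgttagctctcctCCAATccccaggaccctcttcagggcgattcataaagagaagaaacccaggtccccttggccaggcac
The downstream window holds 1 CCAAT box, 18 bases before the start, and the upstream window holds none of the motifs searched.

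Col9a1 and Col2a1 are also genes of cartilage cells. Of 8 other chondrocyte markers on the array 1 was measured, against 60.1% of all genes on the array. It was Sox9, the master transcription factor of cartilage, at −0.29. Acan, encoding aggrecan, lay under the floor in both clones, with signals of 30.6 in hPHD4 cells and 34.1 in control cells, and so did Matn1, Hapln1 and Cnmd. Comp was above the floor in hPHD4 cells alone, with 95.3 in hPHD4 cells and 42.8 in control cells. Above it in control cells alone were Matn3 (33.8 in hPHD4 cells, 76.9 in control cells) and Snorc (42.8 in hPHD4 cells, 87.5 in control cells). The summed highest signal of the 8 markers was 456.1 in hPHD4 cells and 456.2 in control cells. Those sums hold signals under the floor and differences in opposite directions, so their match does not show that single markers were equal. In bulk RNA, fewer cells of a type and less RNA per cell cannot be told apart.

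The remaining measured genes were 5 of 9 and belong to several families, with 2 past 1.5-fold, against 14.2% of all measured genes, and 4 above 0, against 53.6%. Col8a1, a network-forming collagen of vessel walls and of Descemet's membrane in the eye, had a signal of 183 in hPHD4 cells and 101 in control cells on its measured probe set. The log2 ratio was 0.86 ± 0.40 (1.81-fold higher). Another probe set of Col8a1 had a signal of 101 in hPHD4 cells, above the floor, and of 6.34 in control cells, far under it. Col7a1, the collagen of anchoring fibrils under epithelia, had 183 in hPHD4 cells and 122 in control cells. Its ratio of 0.59 ± 0.40 (1.51-fold higher) lay just past the threshold and was inside it, at 0.47, after quantile normalization or loess correction.

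Col18a1 encodes a proteoglycan collagen of basement membranes whose C-terminal fragment is endostatin, an inhibitor of angiogenesis. Its probe sets had signals of 281 and 304 in hPHD4 cells, against 266 and 405 in control cells, and log2 ratios of 0.08 and −0.41. They lay on both sides of 0, and the mean of −0.17 ± 0.26 gives no direction. Col25a1, a transmembrane collagen of neurons, had 92.9 in hPHD4 cells and 72.1 in control cells, and Col26a1 had 98.7 in hPHD4 cells and 80.9 in control cells. Their ratios of 0.37 ± 0.40 and 0.29 ± 0.40 rest on signals next to the floors. After quantile normalization they were 0.11 for Col25a1 and 0.05 for Col26a1.

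Of the 19 collagens not measured, 11 lay under the floor in both clones. They were Col3a1, Col4a4, Col9a2, Col9a3, Col10a1, Col11a1, Col13a1, Col17a1, Col19a1, Col20a1 and Col22a1. Col3a1, of the type III collagen of skin and vessels, reached signals of 70.5 in hPHD4 cells and 53.5 in control cells. Col10a1, the type X collagen of hypertrophic cartilage, had 8.33 in hPHD4 cells and 7.15 in control cells. A further 5 genes passed the floor in hPHD4 cells alone, where the share of all genes on the array was 4.48%. Of these, Col11a2, which encodes a type XI chain of cartilage fibrils, had 135 in hPHD4 cells and 49.9 in control cells. Col4a6 had 97.4 in hPHD4 cells and 20.4 in control cells, and Col4a3 had 94.1 in hPHD4 cells and 27.0 in control cells. Both encode minor type IV chains of specialised basement membranes. Another probe set of Col4a6 lay under the floor in both clones, at 7.51 in hPHD4 cells and 9.21 in control cells. Col5a3, another type V chain, had 105.1 in hPHD4 cells and 55.6 in control cells, and the FACIT gene Col14a1 had 98.5 in hPHD4 cells and 60.9 in control cells. Col5a3 and Col14a1 each had a further probe set under the floor in both clones.

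The other 3 were above the floor in control cells alone, where the share of all genes was 3.61%. Col16a1, a FACIT, had 44.0 in hPHD4 cells and 91.3 in control cells. The basement membrane collagen gene Col15a1 had 8.54 in hPHD4 cells and 69.7 in control cells. Col4a5 had 76.5 in hPHD4 cells and 80.7 in control cells and changed sides only because the floors differ. No collagen met the rule for a bound, which asks for a signal above the 75th percentile in 1 clone (545.4 in hPHD4 cells, 532.1 in control cells). Measured genes made up 47.2% of the collagens and 60.1% of all genes on the array.

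**Figure D3:**
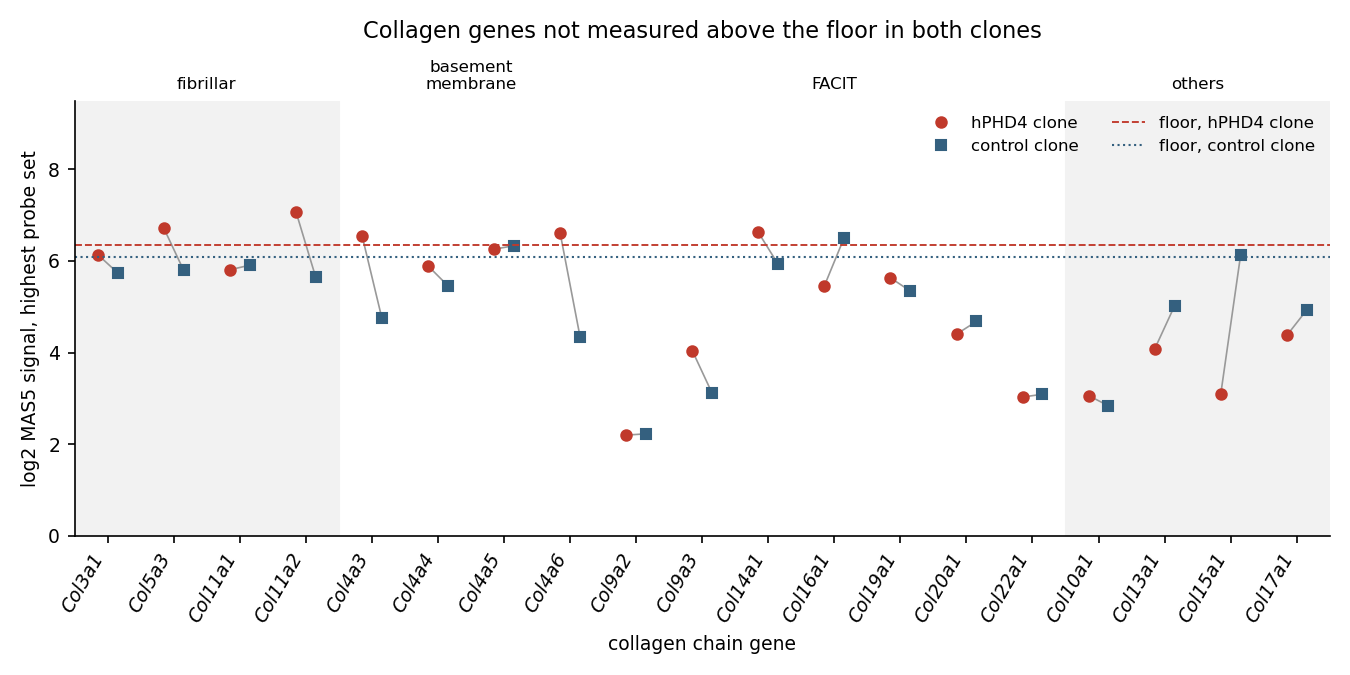
Log2 MAS5 signal of the brightest probe set (vertical axis) for the 19 collagen genes not measured above the floor in both clones, by class; circles are the hPHD4 clone, squares the control clone, and horizontal lines the floors. Col11a2, Col4a3 and Col4a6 cross the floors in hPHD4 cells alone, and Col16a1 and Col15a1 in control cells alone.

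The dimmest collagens all lay above 0, and the brighter ones were mixed. All 6 collagens of the dimmest of the 3 groups had ratios above 0 (Col4a1, Col4a2, Col7a1, Col8a1, Col25a1 and Col26a1), where 62.2% of all genes of that group did. Of these 6, 3 were at least 1.5-fold higher, against 16.3% of the group. In the middle group 1 of 5 lay above 0 (52.6% of all genes), and in the brightest 2 of 6 (46.1%). The median log2 ratio of the collagens was 0.54 in the dimmest, −0.42 in the middle and −0.15 in the brightest group. The median of all genes was 0.13 in the dimmest, 0.02 in the middle and −0.03 in the brightest group. After loess correction, which removes the trend of all genes with brightness, the collagen median was 0.03, again the ratio of Col26a1. Among single genes, Col25a1 then stood at 0.08 and Col26a1 at 0.03, while Col8a1 stood at 0.72 and Col9a1 at 1.11.

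**Figure D4:**
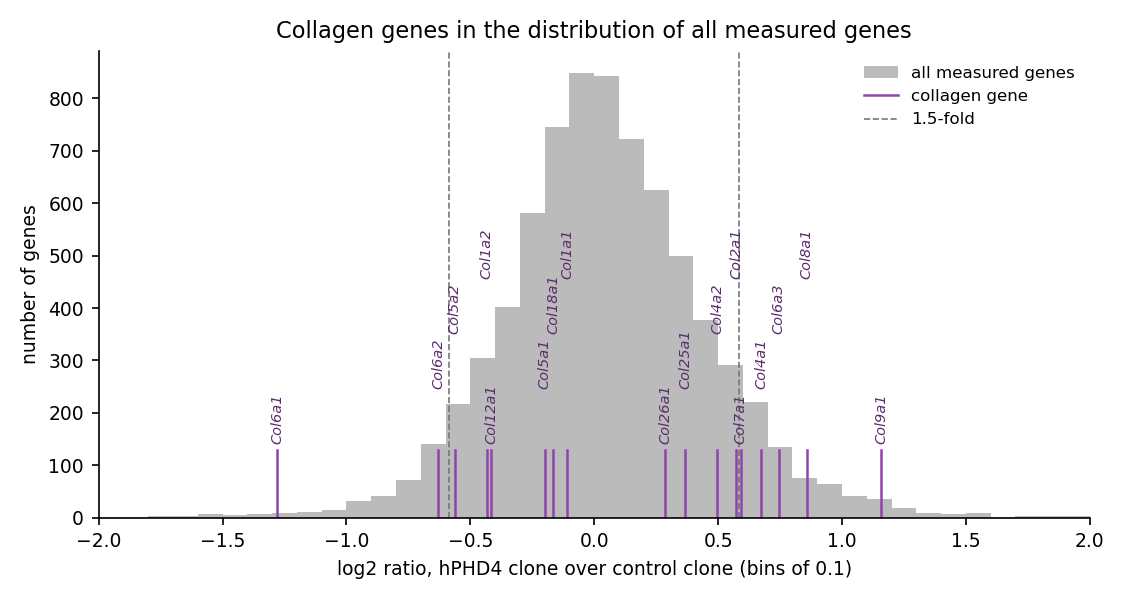
Number of genes (vertical axis) by log2 ratio, hPHD4 clone over control clone, in bins of 0.1 for all 7452 measured genes, with the 17 collagens as vertical lines and 1.5-fold as dashed lines; 20 genes beyond 2 in either direction are outside the axis. Col6a1 and Col9a1 lie in the thin tails, and the collagens leave a gap between −0.11 and 0.29, where the histogram is highest.

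Of the 8 collagens with at least 2 measured probe sets, 4 had probe sets on both sides of 0, against 47.3% of all such genes. These were Col1a1, Col5a1, Col6a2 and Col18a1. The probe sets of Col4a1 and Col9a1 lay together above 0, and those of Col1a2 and Col5a2 below it. The other 9 measured collagens had 1 measured probe set and no such check.

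RefSeq promoter windows were matched for 12 of the 17 measured genes (15 windows) and for 27 of all 36. The measured genes Col1a1, Col2a1, Col5a2, Col12a1 and Col26a1 had no window, so the shares below leave them out. Among the 15 windows, 10 held a GC box, or 66.7%, where 35.7% of all 32851 windows did, as did 7 of the 15 windows of collagens not measured. The mean share of G and C was 61.6% in windows of measured collagens, 56.0% in those of the others and 53.8% in all. A CCAAT box was in 7 of 15, or 46.7%, against 37.4% of all. The TATA box (TATAAA on either strand) was in 0 of the 15, in 5 of the 15 windows of collagens not measured, and in 13.6% of all. A hypoxia core was in 6 of 15, against 43.8% of all windows. These windows are not independent, since those of Col4a1 and Col4a2 overlap, as do those of Col6a2, and no test was made.

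Genes that modify and fold collagen chains lay mostly below 0. All 14 genes of this list on the array were measured, 11 of them with ratios below 0, where 46.4% of all measured genes were. By at least 1.5-fold, 3 were lower, against 5.22% of all measured genes, and 0 were higher, against 8.94% (median −0.21, against 0.03 over all measured genes). P4ha2, a catalytic subunit of collagen prolyl hydroxylase, had signals of 501 in hPHD4 cells and 1078 in control cells, a log2 ratio of −1.11. The other catalytic subunit on the array, P4ha1, was at −0.07 on 2 probe sets. Ppib, encoding cyclophilin B, had a ratio of −0.72 and P3h1, encoding prolyl 3-hydroxylase 1, a ratio of −0.69 (SDs of 0.48 and 0.28 between 2 probe sets). The products of both work in the same complex on type I chains. Creb3l1, a transcription factor of the secretory pathway in osteoblasts, was at −0.58, just inside 1.5-fold. Serpinh1, encoding the collagen chaperone HSP47, was at −0.07, and P4hb, encoding the other subunit of the prolyl hydroxylase, at 0.16. The lysyl hydroxylase genes Plod2 and Plod3 lay highest in the list, at 0.49 and 0.27.

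In the list of procollagen cleavage and crosslinking 7 of 9 genes were measured, with 2 at least 1.5-fold lower, against 5.22% of all measured genes, and 0 higher, against 8.94% (median −0.15). These were the lysyl oxidase genes Loxl3, at −0.70, and Lox, at −0.60, whose products crosslink collagen and elastin. Bmp1, which encodes the C-propeptide protease of fibrillar procollagens, was at 0.39, and Sparc, encoding a collagen-binding protein of bone, at −0.20. Among the 5 measured genes of procollagen secretion 0 were past 1.5-fold, against 14.2% of all measured genes. Sec24d was lowest at −0.48 and Mia3, encoding the cargo receptor TANGO1, highest at 0.27. Of 6 collagen receptor genes on the array 3 were measured, Itgb1 at −0.04, Ddr1 at −0.12 and Ddr2 at 0.06. The 5 measured probe sets of Ddr1 had an SD of 0.47. Itga2 had 46.4 in hPHD4 cells and 82.0 in control cells, and Mrc2 had 53.4 in hPHD4 cells and 70.7 in control cells. Both passed the floor in control cells alone, as did 3.61% of all genes on the array.

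Of the collagen-degrading proteases 3 of 7 were measured. Ctsk, encoding cathepsin K, had signals of 202 in hPHD4 cells and 95.3 in control cells, a ratio of 1.08. Mmp14 and Mmp2 lay at −0.48 and −0.47, with SDs of 0.34 and 0.68 between their probe sets, 2 for each gene. Mmp13, encoding collagenase 3, had signals of 22.3 in hPHD4 cells, under the floor, and 735.6 in control cells. Above the floor in control cells alone were 3.61% of all genes on the array. The other 3 passed the floor, 81.1, in hPHD4 cells alone, where the share of all genes on the array was 4.48%. Mmp8 had 99.97 in hPHD4 cells and 39.5 in control cells, Mmp9 had 98.3 in hPHD4 cells and 53.9 in control cells, and Mmp16 had 109 in hPHD4 cells and 29.4 in control cells. Among 6 measured transcription factors of collagen genes, Smad3 was at 0.74 and Sp1, which binds GC boxes, at −0.97. The other 4 lay within 1.5-fold, where 14.2% of all measured genes were past it.

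Most osteoblast markers were measured in both clones. Of 9 osteoblast markers on the array 7 were measured, Col1a1 and Col1a2 among them, against 60.1% of all genes on the array. Sp7, the osterix gene, had signals of 3039 in hPHD4 cells and 2588 in control cells, and Alpl, encoding alkaline phosphatase, had 3712 in hPHD4 cells and 3218 in control cells. Ibsp was 1.09 higher on the log2 scale, with an SD of 0.67 between its 2 probe sets. Phex and Dmp1, markers of late osteoblasts and osteocytes, were under the floor in both clones. Of the other cell types, 0 of 11 epithelial, 0 of 6 adipocyte, 2 of 9 muscle, 3 of 9 endothelial and 5 of 11 leukocyte markers were measured. The same share of all genes, 60.1%, stands beside these counts. With each gene read from its highest signal on each array, epithelial markers summed to 582 in hPHD4 cells and 301 in control cells, and adipocyte markers to 166 in hPHD4 cells and 245 in control cells. In both clones 9 of the 11 epithelial and 5 of the 6 adipocyte markers lay under the floor, so much of these sums is background. The rest crossed the floor in a single clone. Krt8 had 173 in hPHD4 cells and 59.4 in control cells, and Krt14 had 86.2 in hPHD4 cells and 35.6 in control cells. Pparg had 3.33 in hPHD4 cells and 115 in control cells. Endothelial markers summed to 1090 in hPHD4 cells and 936 in control cells, and leukocyte markers to 969 in hPHD4 cells and 1657 in control cells. The endothelial marker Emcn had 97.7 in hPHD4 cells and 1.92, under the floor, in control cells. Of the leukocyte markers, Cd3e had 88.7 in hPHD4 cells and 26.9 in control cells, and Cd14 had 77.2 in hPHD4 cells and 119.7 in control cells. Cd3e passed the floor in hPHD4 cells alone and Cd14 in control cells alone. The leukocyte sum turned on Fcer1g, which had 107 in hPHD4 cells and 980 in control cells. The other 10 markers of that list summed to 862 in hPHD4 cells and 677 in control cells, and the 4 of them that were measured had log2 ratios between 0.00 and 0.48. Muscle markers summed to 5637 in hPHD4 cells and 15659 in control cells, and the sum turned on Acta2, with 5385 in hPHD4 cells and 15193 in control cells. Another muscle marker, Cnn1, had 22.0 in hPHD4 cells, under the floor, and 165 in control cells. None of the listed markers on the array was at 0. The part of these differences in the collagen ratios was not tested.

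**Figure D5:**
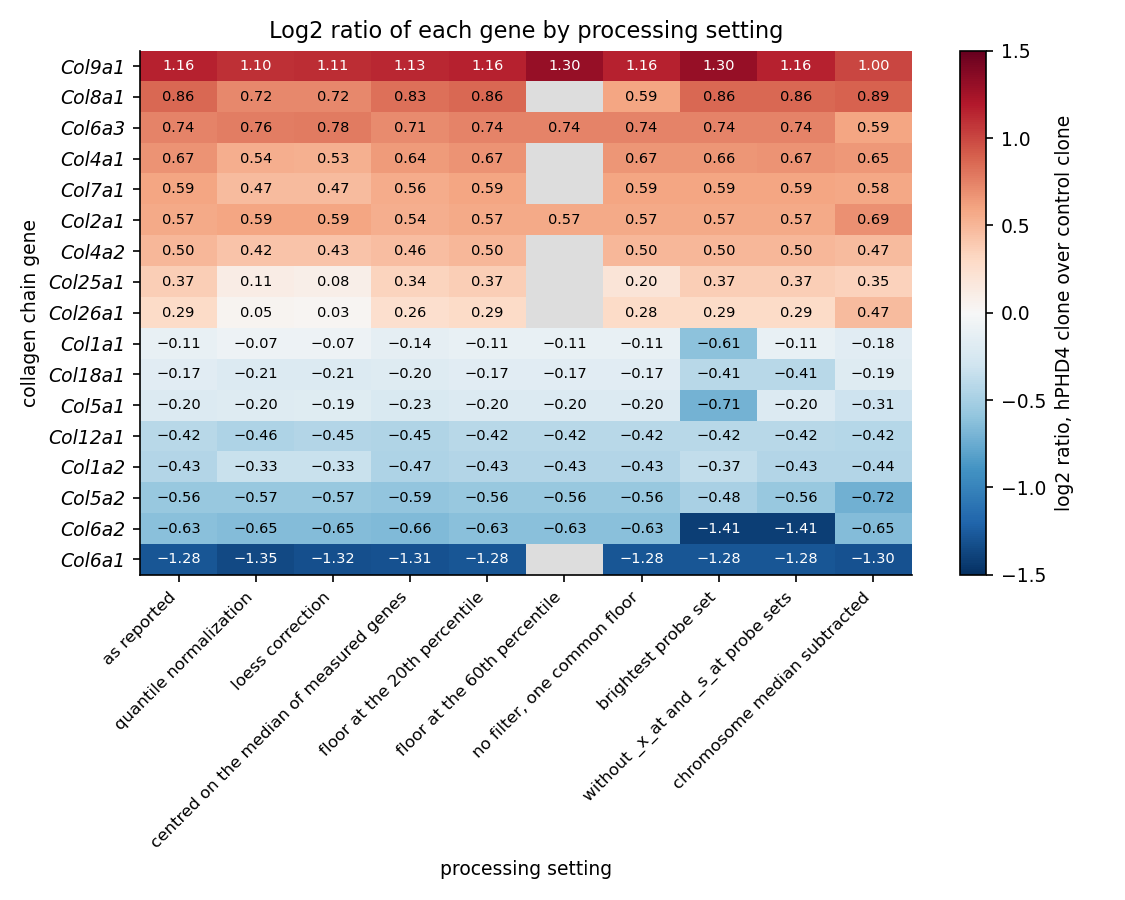
Log2 ratio, hPHD4 clone over control clone (colour and number), of each measured collagen gene (rows) under each processing setting (columns); grey cells are genes under the floor in that setting. All 17 genes keep their sign in every setting that measured them, from Col9a1 at the top to Col6a1 at the bottom, and Col6a2, Col1a1 and Col5a1 change most, when the brightest probe set is read.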

How the data were processed

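Total RNA of 1 hPHD4 clone and 1 control clone (5 µg each) was hybridised to Affymetrix mouse arrays of 22690 probe sets, 64 of them controls. The deposited values are log2 signals made by the authors with MAS5, per the submitters' processing notes, with no version or settings named in the sources at hand. The log base was settled from the values: as powers of 2, the signals of both arrays had the same mean of 500.2 after the highest and lowest 2% were trimmed. No further scaling was applied. Of the probe sets, 20380 had 1 gene symbol and entered, 691 had several and 1555 had none. All 36 collagen genes matched the RefSeq gene table (GRCm38.p6) by gene number. The 8 collagens of that table without a probe set of their own symbol were not analysed here, and 0 probe sets paired a collagen with another symbol.

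The floor was the 40th percentile of non-control probe sets of each array. Calls use a 1.5-fold threshold. Alternatives were quantile normalization, loess correction (span 0.3), centring, floors at the 20th and 60th percentile, no filter above 1 common floor, the brightest probe set, leaving out probe sets ending in _x_at or _s_at, and thresholds of 2-fold and 3-fold; subtraction of chromosome medians was added after seeing the data. Every measured collagen was named, and from each pathway list the genes past 1.5-fold and up to 4 with the largest ratios, beside a few named for their role after their values were seen. Members and lists were chosen with earlier results of these data known. Steps were tested on simulated data in which only bright genes were changed, by at least 2-fold. That test does not cover dim genes or smaller changes. Analyses used Python 3.11.15, pandas 2.3.3 and statsmodels 0.14.6. The precision is limited by the number of arrays, 1 per group.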

Additional observations from a re-analysis of the deposited data

How the results depend on the processing

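All 17 measured collagens kept their sign under every alternative that measured them, of the 8 planned and the 1 added, although 63 of the 146 recomputed ratios were identical because the setting left that gene untouched. Of the 83 that changed, 79 moved by less than the SD between probe sets (0.35 over all genes). The side of the 1.5-fold threshold held throughout for 11 genes and changed for Col1a1, Col2a1, Col4a1, Col5a1, Col5a2 and Col7a1. With the brightest probe set, Col1a1 stood at −0.61, Col5a1 at −0.71 and Col6a2 at −1.41, 4 genes were at least 1.5-fold lower, the type VI median was −1.28 and the fibrillar median −0.48. Chain differences were then −0.24 for Col1a1 minus Col1a2, −0.23 for Col5a1 minus Col5a2, 0.13 for Col6a1 minus Col6a2 and −2.16 for Col6a2 minus Col6a3. Leaving out _x_at and _s_at probe sets gave the same −1.28, 0.13 and −2.16 for type VI, since each setting drops the same Col6a2 probe set. With the floor at the 20th percentile 28 collagens were measured and 9 were at least 1.5-fold higher, where the share of all genes was 16.4%. At the 60th percentile 10 were measured, 7 fewer, with 2 higher and 1 lower (4.71% and 4.58% of all genes) and a median of −0.18; the type VI median was 0.058 without Col6a1, and that of the other collagens −0.17 on Col18a1 alone. Without a filter the median was 0.17 for basement membrane, 0.00 for fibrillar, 0.00 for FACIT and 0.00 for the other collagens, because genes under the floor on both arrays count as equal. A 2-fold threshold left 1 gene higher and 1 lower, and a 3-fold threshold 0 and 0. The collagen median of 0.29 was 0.05 after quantile normalization and 0.03 after loess correction. In each setting it was the ratio of Col26a1 alone, so its fall describes that gene. No paired analysis was possible because each group has 1 array, and no replicate could be left out. Signals near the floor limit Col25a1, Col26a1, Col4a1 and Col8a1.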
